A study of Nicotiana tabacum with 54 samples.

Results

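NtGSTU14, NtGSTU17 and NtGSTU40 are 3 of the 40 Tau members among the 59 tobacco glutathione S-transferase (GST) genes listed by the study, and they are linked to one another by 3 of its 13 duplicated pairs, all 3 classed as segment duplications. They were found in the expression tables, which hold 69500 genes, by the identifiers Nitab4.5_0000008g0200 (NtGSTU14), Nitab4.5_0002823g0010 (NtGSTU17) and Nitab4.5_0000652g0050 (NtGSTU40). The transcripts of the 3 genes were measured by RNA sequencing of total RNA from roots, stalks and leaves of 6 tobacco materials, all of them topped, that is, with the flower head cut off, before sampling. Per the methods of the study, each biological replicate came from several plants, from which all 3 tissues were sampled. There were 54 libraries, 3 for each tissue of each material, and so 18 per tissue. The labels name the materials Basma, GDH88, Hongda, HxB, Va116 and VxG88 (with a multiplication sign for the x in HxB and VxG88). The methods of the study list Hongda, HG, GDH11, Va116, VG and GDH88 instead, and how HG, GDH11 and VG correspond to the labels Basma, HxB and VxG88 is not stated, so that materials are named here by the labels alone. The study calls its materials tobacco varieties, and the labels HxB and VxG88 are written as crosses, so that material stands for genotype. No treatment or untopped control distinguished the groups, and tissue and material were the only differences stated. The gene list of the study places NtGSTU14 on chromosome 2, NtGSTU17 on chromosome 5 and NtGSTU40 on chromosome 24, in a genome build that it does not name.

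Glutathione S-transferases join the tripeptide glutathione to reactive or foreign molecules, and the conjugates are then moved into the vacuole. The Tau class is found in plants and is best known for the detoxification of herbicides, for binding of small ligands, and for transcripts that respond to stress and hormones. After a duplication, the copies can keep the same pattern of expression, divide it between organs, or differ in level, and the ratio of the copies in each library measures which of these patterns is seen. Levels below are in FPKM (fragments per kilobase of transcript, scaled to a fixed number of fragments), which allow for gene length, so that the members can be compared with each other as far as the lengths used were right.

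The primers with which the study amplified NtGSTU40 are shown because they identify the transcript that it followed by RT-qPCR, a measurement not analysed here. Whether they also match NtGSTU14 or NtGSTU17 was not checked.
NtGSTU40 forward: tggacatagtgggagccctt
NtGSTU40 reverse: ttgccattgtgcaacaacact
Motifs that the study lists for the promoters of all 3 genes are the anaerobic response element AAACCA, the light-related Box 4 ATTAAT, and TGACG with its reverse complement CGTCA, both known as elements of the methyl jasmonate response. Of the motifs that it lists for 1 or 2 of the genes, AACGAC, the auxin-related TGA-element, stands for NtGSTU14 and NtGSTU17, CAACTG, a binding site of MYB factors, for NtGSTU17 and NtGSTU40, and ACGTG, the core of the abscisic acid response element, for NtGSTU40. The promoters themselves were not searched here, and none of the results below draws on these letters.

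The values of a library summed to 768375 to 832327, and 30198 to 37004 genes per library reached 1 FPKM. The deposited values hold no read counts, so the depth behind each value is unknown. The tables number the 3 libraries of a group from 1 to 3, and no source ties these numbers to the replicate letters of the samples. The p-values below measure the spread between these libraries. By a check with genes that differ among materials, 45 libraries were nearest to their own material and 9 to another one (Root Basma 1, Root GDH88 2, Stalk Basma 1, Stalk GDH88 1, all 3 Stalk VxG88 libraries, Leaf VxG88 1 and Leaf VxG88 2). The clearest case was Stalk VxG88 1, with a correlation of 0.94 to HxB and of -0.33 to VxG88. This library was part of the VxG88 mean with which the other Stalk VxG88 libraries were compared. The 9 were not equally clear: Leaf VxG88 1 had a correlation of 0.33 to Va116 and of 0.29 to VxG88. Comparisons of tissues rest on the tissue labels, which this check does not concern, and no call reported here was lost when the 9 libraries were left out. Reads of closely similar genes can be assigned to either copy, and the sources used here do not say how such reads were divided among the 3 genes.

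NtGSTU14 had the lowest level of the 3 genes in 54 of 54 libraries. Its lowest, median and highest levels were 12.7, 23.8 and 44.0 FPKM in roots, 0.07, 0.73 and 6.35 FPKM in stalks, and 1.03, 5.54 and 16.7 FPKM in leaves. The root and stalk libraries did not overlap, a separation found for 8.17% of all genes tested (16.6% between root and leaf and 17.6% between stalk and leaf), and 11 of 18 stalk libraries lay below the lowest leaf library. The mean was 23.1 ± 7.23 FPKM in roots, 1.48 ± 1.90 FPKM in stalks and 6.85 ± 5.39 FPKM in leaves (SD, n = 18 each). On log2(FPKM + 1), the root level exceeded the stalk level by 3.51 (SE 0.26, adjusted p = 1.15e-16, limma) and the leaf level by 1.92 (SE 0.26, adjusted p = 8.3e-09, limma). The stalk level was lower than the leaf level, with a log2 difference of -1.60 (SE 0.26, adjusted p = 5.4e-07, limma), and it was lower in all 6 materials. With pseudocounts of 0.1 and 0.01 in place of 1, this stalk minus leaf difference was -2.47 and -2.70. Of all genes tested, 67.0% were called between root and stalk at an adjusted p under 0.05 (26.5% higher and 40.6% lower in root), 73.4% between root and leaf (36.4% higher and 37.0% lower in root) and 68.5% between stalk and leaf (37.2% higher and 31.3% lower in stalk), so a call by itself sets none of the 3 genes apart.

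NtGSTU17 was expressed in every library. Its lowest, median and highest levels were 66.4, 146 and 331 FPKM in roots, 6.99, 39.4 and 128 FPKM in stalks, and 24.5, 55.1 and 109 FPKM in leaves. Roots were high, stalks and leaves overlapped widely, and 12 of 18 root libraries exceeded every leaf library. The means were 150.2 ± 68.7 FPKM in roots, 44.3 ± 36.04 FPKM in stalks and 60.9 ± 26.5 FPKM in leaves (SD, n = 18 each). The log2 difference was 2.03 for root minus stalk (SE 0.29, adjusted p = 2.13e-08, limma) and 1.28 for root minus leaf (SE 0.29, adjusted p = 9.84e-05, limma), and both were positive in 6 of 6 materials. Stalks were lower than leaves, with a log2 difference of -0.76 (SE 0.29, adjusted p = 0.0172, limma). This smaller difference missed the threshold without the libraries numbered 2 (-0.55, adjusted p = 0.157), without those numbered 3 (-0.65, adjusted p = 0.103) and without GDH88 (-0.63, adjusted p = 0.0825).

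NtGSTU40 had the widest range in roots, with 49.2, 157 and 434 FPKM as the lowest, median and highest levels. In stalks these values were 5.76, 31.2 and 241 FPKM, and in leaves 9.18, 24.9 and 70.3 FPKM. The highest stalk library, Va116 2, had 241 FPKM, against 8.06 and 31.5 FPKM in the other 2 Va116 stalk libraries. Root levels exceeded those of stalks by 2.21 and those of leaves by 2.48 on the log2 scale (SE 0.36 each, adjusted p = 5.98e-07 and 3.59e-08, limma). Between stalk and leaf no difference was detected (log2 difference 0.27, SE 0.36, adjusted p = 0.529, limma). The sign of this last difference changed without the libraries numbered 1 (-0.20, adjusted p = 0.709).

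**Figure D1:**
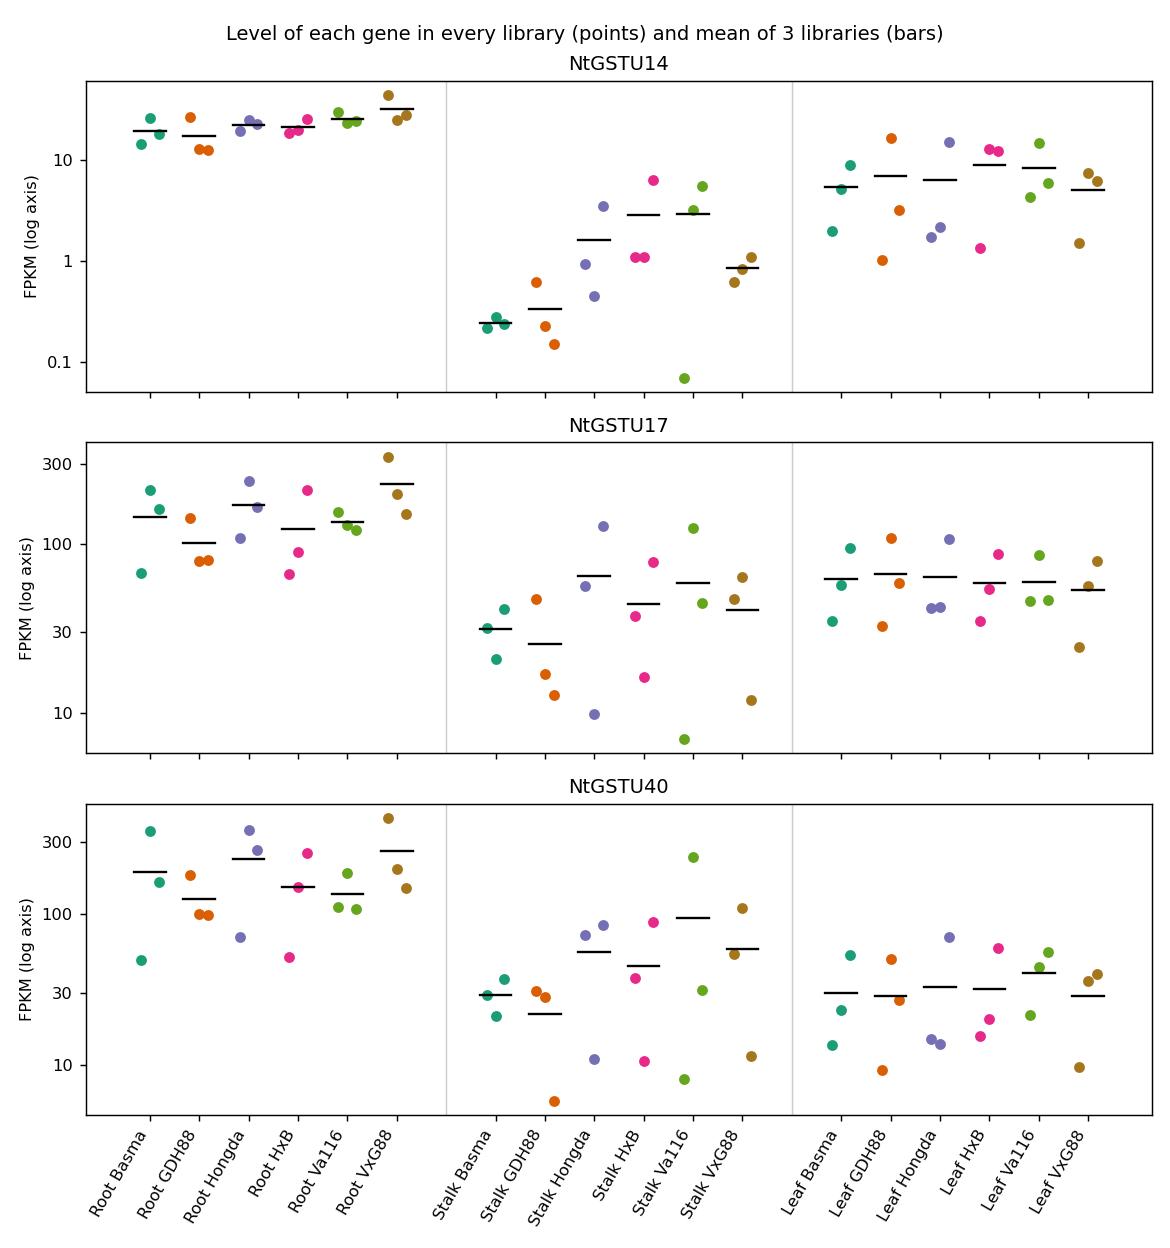
Level of NtGSTU14, NtGSTU17 and NtGSTU40 in FPKM on a log axis in each of the 54 libraries (points), by tissue and material, with the mean of the 3 libraries of a group as a bar. Root means were highest for all 3 genes, and the median of NtGSTU14 was 23.8 FPKM in roots and 0.73 FPKM in stalks.

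Ratios within the trio were compared because both copies of a pair are measured in the same library. NtGSTU40 and NtGSTU17 were close to each other in roots and stalks, and NtGSTU40 was about 2 times lower relative to NtGSTU17 in leaves. The ratio NtGSTU40/NtGSTU17 had a lowest, median and highest value of 0.653, 1.21 and 1.70 in roots, 0.449, 0.993 and 1.93 in stalks, and 0.282, 0.457 and 1.19 in leaves. NtGSTU40 was the highest of the 3 genes in 12 of 18 root libraries and in 8 of 18 stalk libraries. NtGSTU17 was the highest in 6 of 18 root, 10 of 18 stalk and 17 of 18 leaf libraries. The exception in leaves was Leaf Va116 3. The mean ratio was 1.16 ± 0.337 in roots, 1.05 ± 0.398 in stalks and 0.502 ± 0.204 in leaves (SD, n = 18 each). On log2(FPKM + 1), the ratio was higher in root than in leaf by 1.20 (a fold of 2.30) and higher in stalk than in leaf by 1.03 (a fold of 2.04), in 6 of 6 materials each. In a two-sided permutation test of the tissue labels within each material (100000 resamples), both reached the lowest possible p = 1e-05, with an adjusted p = 3e-05 for the 9 ratio comparisons between tissues. Between root and stalk the log2 difference was 0.17 (adjusted p = 0.328, permutation test), with 4 materials higher and 2 lower, and without the libraries numbered 3 it was -0.01 (adjusted p = 0.954, permutation test).

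NtGSTU14 departed from the other pair most in stalks. The ratio NtGSTU17/NtGSTU14 had a lowest, median and highest value of 3.58, 5.88 and 9.52 in roots, 8.07, 67.1 and 172 in stalks, and 4.20, 10.9 and 31.7 in leaves. Root and stalk ranges overlapped only between 8.07 and 9.52, and the leaf median lay between theirs. The log2 ratio was lower in root than in stalk by a difference of -1.48 (adjusted p = 3e-05, permutation test), lower in root than in leaf by a difference of -0.64 (adjusted p = 0.000705, permutation test) and higher in stalk than in leaf by 0.84 (adjusted p = 0.00341, permutation test), each with the same sign in 6 of 6 materials. Without the libraries numbered 1, the root minus leaf difference was -0.28 (adjusted p = 0.126, permutation test). With a pseudocount of 0.01 in place of 1, the root minus stalk and stalk minus leaf differences were -2.82 and 1.91, since a pseudocount of 1 compresses the NtGSTU14 values below 1 FPKM.

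The ratio NtGSTU40/NtGSTU14 had a lowest, median and highest value of 2.79, 7.69 and 14.5 in roots, 5.63, 61.6 and 154 in stalks, and 1.56, 6.07 and 11.3 in leaves. Stalks were again high, and roots and leaves overlapped. The log2 ratio was lower in root than in stalk by a difference of -1.31 (adjusted p = 0.000486, permutation test) and higher in stalk than in leaf by 1.87 (adjusted p = 4.5e-05, permutation test), in 6 of 6 materials each. Without the libraries numbered 1, the root minus stalk difference was -0.82 (adjusted p = 0.0978, permutation test). With a pseudocount of 0.01 the root minus stalk and stalk minus leaf differences were -2.65 and 2.97. The root minus leaf difference was 0.56 (adjusted p = 0.0196, permutation test) and was not stable: it was 0.35 with a pseudocount of 0.1 (adjusted p = 0.176, permutation test), 0.32 with 0.01 (adjusted p = 0.223, permutation test) and 0.07 without the libraries numbered 2 (adjusted p = 0.774, permutation test).

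**Figure D2:**
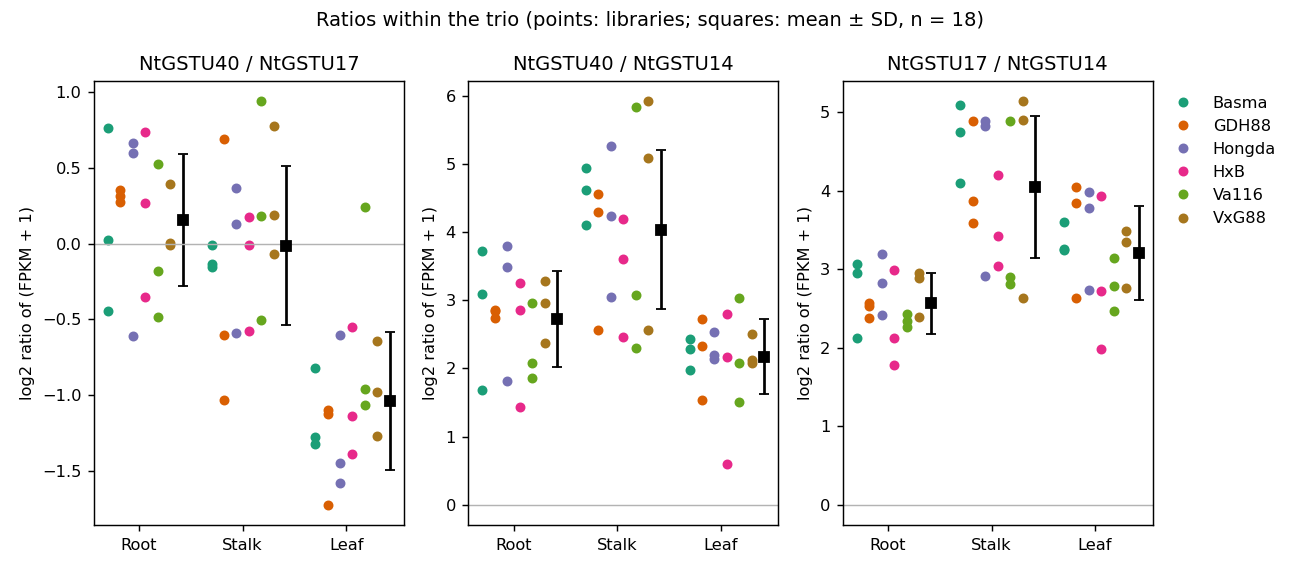
Log2 ratios of (FPKM + 1) between the 3 genes in root, stalk and leaf libraries, with 1 point per library coloured by material and squares for the mean ± SD of 18 libraries. NtGSTU40/NtGSTU17 averaged 0.16 in roots, -0.01 in stalks and -1.04 in leaves, and both ratios over NtGSTU14 were highest in stalks.

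As shares of their summed FPKM, NtGSTU17 and NtGSTU40 made up most of the trio in every tissue. NtGSTU40 had 48.9 ± 7.99% of the sum in roots, 48.9 ± 9.40% in stalks and 30.5 ± 6.93% in leaves (SD, n = 18 each). NtGSTU17 had 43.7 ± 5.99% in roots, 49.4 ± 8.85% in stalks and 63.5 ± 7.84% in leaves. The share of NtGSTU14 was 7.42 ± 2.60% in roots, 1.70 ± 1.82% in stalks and 6.07 ± 3.16% in leaves. The sum itself averaged 356 ± 182 FPKM in roots, 96.4 ± 90.03 FPKM in stalks and 99.8 ± 49.0 FPKM in leaves. Only the means of stalks and leaves were close, and the median sum was lower in stalks. Sums ran from 15.1 to 368.8 FPKM in stalks, with the highest in Stalk Va116 2, and from 35.6 to 193.1 FPKM in leaves. These shares are descriptions of the values behind the ratios and were not tested again.

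**Figure D3:**
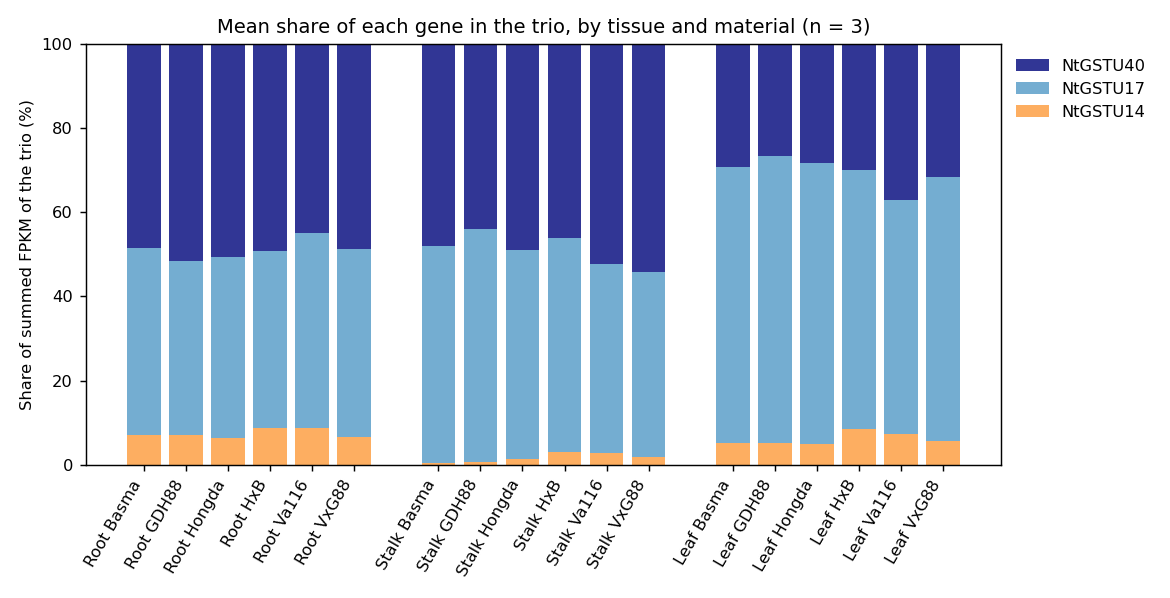
Mean share of each gene in the summed FPKM of the trio, in percent, for each tissue and material (stacked bars, 3 libraries each). NtGSTU17 took 41.4% to 46.2% in roots of the 6 materials, against 55.6% to 68.2% in leaves, and NtGSTU14 took at most 3.02% in stalks.

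Among the 6 materials, neither the levels nor the ratios of the trio differed beyond the spread between libraries of a group. In roots, all 3 genes had their highest mean in VxG88 and their lowest in GDH88. NtGSTU17 had 331, 199 and 151 FPKM in the 3 VxG88 root libraries, and 142, 79.99 and 81.0 FPKM in the 3 of GDH88. For NtGSTU40 the values were 434, 199.5 and 149 FPKM in VxG88 roots and 182, 99.6 and 98.3 FPKM in GDH88 roots. These 2 materials were picked as the extremes of the 6, so that a gap between their libraries is not read as a difference. One of these libraries, Root GDH88 2, was nearest to VxG88 in the check of labels, with a correlation of 0.79, against -0.45 to GDH88. The F test over all 6 materials gave an adjusted p = 1.00 for each of the 3 genes (unadjusted p = 0.119 for NtGSTU14, 0.278 for NtGSTU17 and 0.756 for NtGSTU40, limma). This test called 0.307% of all genes in roots, 0.403% in stalks and 1.60% in leaves, and 5.14%, 5.32% and 7.05% had an unadjusted p under 0.05. In stalks the mean of NtGSTU14 differed most, with 2.97 ± 2.77 FPKM in Va116 and 0.247 ± 0.0306 FPKM in Basma (SD, n = 3 each). The 3 Va116 stalk libraries had 0.07, 3.24 and 5.59 FPKM of NtGSTU14, so that 1 of them lay below the 0.22, 0.28 and 0.24 FPKM of Basma. In leaves the material means of NtGSTU17 ran only from 53.5 FPKM in VxG88 to 66.9 FPKM in GDH88.

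Of the 54 contrasts of 1 material with the other 5 (3 genes, 3 tissues and 6 materials), 0 were called by limma and 1 had an unadjusted p under 0.05, with a smallest adjusted p of 0.46. Such contrasts were called for 0.0829% of all gene and material combinations in roots, 0.138% in stalks and 0.487% in leaves. The interaction of tissue and material was called for none of the 3 genes by limma (unadjusted p from 0.923 to 0.993, adjusted p = 1.00), against 0.458% of all genes. Ratios gave the same picture: over the 3 ratios and 3 tissues, the permutation F tests among materials had unadjusted p-values from 0.486 to 0.977 and an adjusted p = 0.977. NtGSTU40/NtGSTU17, for example, averaged 0.72 ± 0.403 in leaves of Va116 and 0.398 ± 0.101 in leaves of GDH88 (SD, n = 3 each). The design limits this comparison: in simulated data, the F test in roots found 61% of genes changed by 2 on the log2 scale in 1 material. The interaction test found 49% of genes changed by 2 in the roots of 1 material. Changed genes were drawn from those with a mean log2 level above 2. Each simulated gene kept its own SD between libraries of a group. This SD was pooled over the 3 tissues, and its median over all genes was 0.42. It was 0.87 for NtGSTU14, 0.96 for NtGSTU17 and 1.23 for NtGSTU40. Within roots alone it was lower, with 0.36, 0.63 and 0.998 in the same order. A median over all genes was not computed for roots alone. Neither the 61% nor the 49% is therefore the power for these 3 genes, and the F test was not simulated in stalks or leaves.

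Libraries of the same group differed more for these genes than for most. The SD within groups on log2(FPKM + 1) was 0.87 for NtGSTU14, 0.96 for NtGSTU17 and 1.23 for NtGSTU40, against a median of 0.42 over all genes. Only 2.38% of all genes had a larger SD within groups than NtGSTU40, and 4.52% of the 1991 genes within 0.5 of its mean log2 level. For NtGSTU17 these shares were 6.84% of all genes and 11.9% of the 1569 genes near its level. Tissue accounted for 75.9% of the variance of NtGSTU14, 50.3% of that of NtGSTU17 and 52.1% of that of NtGSTU40, and differences within groups for 18.6%, 44.3% and 42.9%. Over all genes the medians were 48.9% for tissue and 36.3% within groups, so that the tissue shares of NtGSTU17 and NtGSTU40 were near the median. The tissue with the widest spread was the stalk for NtGSTU17 (1.37) and NtGSTU40 (1.57), and the leaf for NtGSTU14 (1.23). Roots had the narrowest spread for each gene, with 0.36 for NtGSTU14, 0.63 for NtGSTU17 and 0.998 for NtGSTU40.

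This spread was shared among the 3 genes. Over the 18 libraries of a tissue, NtGSTU40 and NtGSTU17 had a Pearson correlation of 0.90 in roots, 0.93 in stalks and 0.89 in leaves, with Spearman coefficients of 0.91, 0.94 and 0.88. Each Pearson coefficient reached the lowest p possible with 100000 permutations, p = 1e-05, with an adjusted p = 2e-05 for the 12 correlations computed (for the Spearman coefficients, 2e-05 in roots and stalks and 3.43e-05 in leaves). As deviations from the means of the 18 groups of tissue and material, the 54 libraries gave r = 0.92 and rho = 0.92 (adjusted p = 2e-05 each, permutation within groups). When the 2 libraries with the most extreme NtGSTU40 were removed, r was 0.84 in roots, 0.93 in stalks and 0.86 in leaves. Without Stalk Va116 2, the library with 241 FPKM of NtGSTU40, r in stalks was 0.92. In the 3 Hongda stalk libraries, for instance, NtGSTU40 had 73.0, 11.0 and 84.6 FPKM while NtGSTU17 had 56.3, 9.91 and 128 FPKM.

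In roots and stalks, NtGSTU14 had lower coefficients with the other 2 genes than these had with each other, a difference that was not tested. With NtGSTU17 it had r = 0.82 in roots (rho = 0.71), 0.65 in stalks (rho = 0.61) and 0.88 in leaves (rho = 0.90), with adjusted p-values of 9.33e-05, 0.00385 and 2e-05 for r and 0.00189, 0.00917 and 2e-05 for rho (permutation). With NtGSTU40 it had r = 0.66 in roots (rho = 0.62), 0.55 in stalks (rho = 0.59) and 0.86 in leaves (rho = 0.82), with adjusted p-values of 0.00298, 0.0176 and 9.33e-05 for r and 0.00846, 0.0105 and 6e-05 for rho (permutation). The stalk value with NtGSTU40 moved with the libraries and the scale. With the 2 libraries of most extreme NtGSTU40 removed, r over the 16 left was 0.44 (adjusted p = 0.0865, permutation) and no longer passed the threshold. On FPKM as deposited r was 0.43 (adjusted p = 0.084, permutation), with rho as before. It was 0.60 on log2(FPKM + 0.1), 0.66 with the library number as a block and 0.66 without the 9 libraries nearest to another material. With NtGSTU17 in stalks, r was 0.68 on log2(FPKM + 0.1), while rho stayed at 0.61. The stalk median of NtGSTU14 was 0.73 FPKM, a level at which a pseudocount of 1 compresses the values. As deviations from the group means, r was 0.71 with NtGSTU17 (rho = 0.77) and 0.65 with NtGSTU40 (rho = 0.69), with adjusted p-values of 2e-05 and 5.14e-05 for r and 2e-05 each for rho (permutation). Without the libraries numbered 1, these 2 correlations were 0.62 (adjusted p = 0.0534, permutation) and 0.51 (adjusted p = 0.103, permutation). The Spearman coefficients of NtGSTU14 with NtGSTU40 then missed the threshold in roots (0.56) and in leaves (0.55, adjusted p = 0.0943 each, permutation), as did that with NtGSTU17 in stalks (0.57, adjusted p = 0.092, permutation). Whether reads shared among the copies contribute to any of these correlations was not tested.

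**Figure D4:**
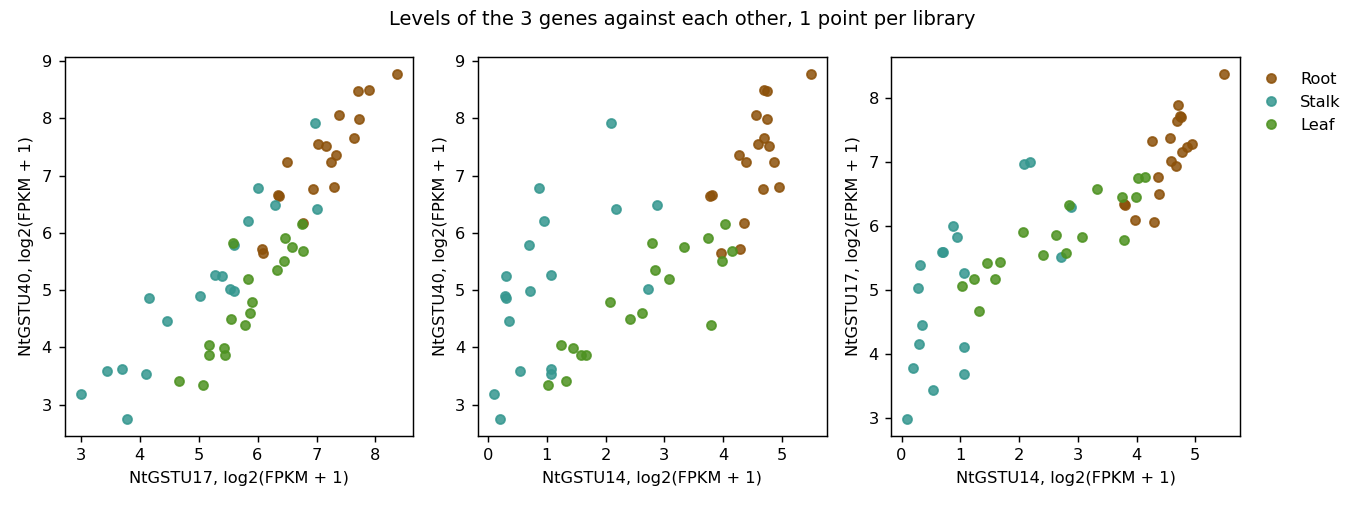
Levels of the 3 genes against each other on log2(FPKM + 1), 1 point per library, coloured by tissue. NtGSTU40 and NtGSTU17 rise together within each tissue (r = 0.90 in roots, 0.93 in stalks and 0.89 in leaves), with leaf libraries shifted toward NtGSTU17, and most stalk libraries lie at low NtGSTU14, with 11 of 18 below every leaf library.

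In leaves the levels moved with the library number. The libraries numbered 1 held the lowest NtGSTU14 and the lowest NtGSTU17 of their material in 6 of 6 materials, and the lowest NtGSTU40 in 5 of 6. NtGSTU14 averaged 1.99 ± 1.19 FPKM in the leaf libraries numbered 1, 9.87 ± 5.80 FPKM in those numbered 2 and 8.68 ± 4.51 FPKM in those numbered 3 (SD, n = 6 each). NtGSTU40 averaged 13.99 ± 4.49, 31.2 ± 14.5 and 50.8 ± 15.4 FPKM in these sets. What the number stands for is not stated. Across all genes, the deviations of leaf libraries from their group means had a mean correlation of 0.35 between materials where the number was shared, against -0.17 where it was not, and its part in the levels of the trio was not tested. In roots the ratio NtGSTU40/NtGSTU17 averaged 0.912 ± 0.301 in the libraries numbered 1, 1.43 ± 0.267 in those numbered 2 and 1.15 ± 0.249 in those numbered 3 (SD, n = 6 each). The number 1 root libraries of Basma, Hongda, HxB and Va116 had 0.731, 0.653, 0.779 and 0.712, while those of GDH88 and VxG88 had 1.28 and 1.31. Within the 6 libraries of 1 number, NtGSTU40 and NtGSTU17 had r from 0.87 to 0.96 in roots, from 0.95 to 0.97 in stalks and from 0.47 to 0.90 in leaves. Within numbers, NtGSTU17 and NtGSTU14 had r from 0.64 to 0.81 in leaves, and NtGSTU40 and NtGSTU14 from 0.79 to 0.91.

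**Figure D5:**
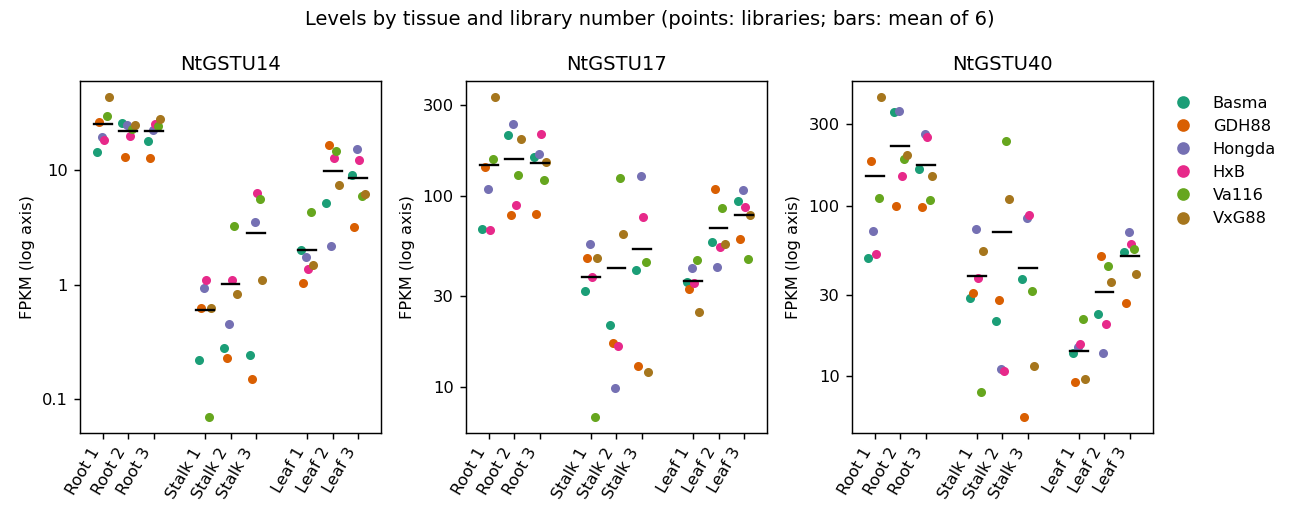
Level of each gene in FPKM on a log axis by tissue and library number, with 1 point per library coloured by material and a bar for the mean of 6. In leaves the libraries numbered 1 were low for all 3 genes, with a mean of 13.99 FPKM of NtGSTU40, against 31.2 and 50.8 FPKM in the libraries numbered 2 and 3.

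Among all 42819 other genes kept, those most like each member over the 54 libraries were ranked by the Pearson correlation of log2(FPKM + 1), as a description without a test. NtGSTU40 was the gene most like NtGSTU17 (r = 0.90, rank 1), and NtGSTU14 stood at rank 10 (r = 0.85). Next to NtGSTU40, NtGSTU17 stood at rank 9 (r = 0.90) and NtGSTU14 at rank 907 (r = 0.75). Seen from NtGSTU14, NtGSTU17 stood at rank 104 and NtGSTU40 at rank 962. All these coefficients contain the difference between tissues. Their median over all other genes was -0.11 for NtGSTU14, -0.13 for NtGSTU17 and -0.15 for NtGSTU40. Over deviations from the group means, which leave tissue and material out, NtGSTU17 and NtGSTU40 were each other's most similar gene (r = 0.92, rank 1 in both directions), while NtGSTU17 stood at rank 96 and NtGSTU40 at rank 412 from NtGSTU14. Within stalks alone the pair again ranked 1 in both directions.

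Over the 54 libraries, the other family members most like the trio were also of the Tau class. For NtGSTU14 they were NtGSTU11 (r = 0.90), NtGSTU7 (r = 0.90) and NtGSTU1 (r = 0.87), all ahead of its 2 duplicates. Over deviations from the group means the order differed, with NtGSTU17 (r = 0.71) and NtGSTU40 (r = 0.65) ahead of NtGSTU11 (r = 0.61) and of every other family member. NtGSTU17 was also the family member most like NtGSTU14 within roots and within leaves. Within stalks, NtGSTU11 (r = 0.76) and NtGSTU7 (r = 0.74) led, and NtGSTU17 (r = 0.65) ranked 5 and NtGSTU40 (r = 0.55) ranked 9 in the family. NtGSTU38 stood beside the closer pair, with r = 0.86 to NtGSTU17 and 0.90 to NtGSTU40, though it is not listed as their duplicate, and NtGSTU6 came after NtGSTU38 and NtGSTU17 for NtGSTU40 with r = 0.78. Over deviations from the group means that place was taken by NtGSTT2, a Theta member named after its values were seen, with r = 0.72 to NtGSTU40. Of genes outside the family, Nitab4.5_0017813g0010 was most like NtGSTU14 (r = 0.94) and Nitab4.5_0012451g0010 most like NtGSTU40 (r = 0.93). These identifiers carry no gene name in the sources used here.

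The 10 other duplicated pairs of the family give the scale for these values, again as a description (in 1 of them a gene did not pass the filter on low values). In the trio, the mean log2 ratio of a pair differed between its highest and lowest tissue by 1.20 (NtGSTU17 with NtGSTU40), 1.48 (NtGSTU14 with NtGSTU17) and 1.87 (NtGSTU14 with NtGSTU40), against 0.17 to 9.62 in the other pairs, with a median of 1.09. Deviations from the group means correlated with r of 0.92, 0.71 and 0.65 in these pairs of the trio, against -0.28 to 0.80 in the other pairs, with a median of 0.30. The trio thus lay within the range of the other pairs for the tissue change, and NtGSTU17 with NtGSTU40 had a larger correlation of deviations than any of them. Over the 54 libraries themselves, its r of 0.90 was below the 0.91 of the pair NtGSTF2 and NtGSTF5.

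Within the Tau class, NtGSTU40 and NtGSTU17 were among the most abundant transcripts, and NtGSTU14 was near the middle. By mean FPKM of the 40 Tau members, NtGSTU40 ranked 3 in roots, 2 in stalks and 9 in leaves, NtGSTU17 ranked 5, 4 and 6, and NtGSTU14 ranked 17, 22 and 16. The highest Tau member was NtGSTU11 in roots (299.96 FPKM) and stalks (62.6 FPKM) and NtGSTU24 in leaves (191 FPKM). Higher levels in roots were common in the class: of the 36 other Tau members tested, 29 were higher and 4 lower in root than in stalk, and 25 were higher and 8 lower in root than in leaf. Their median log2 differences were 1.97 and 1.21, against -0.13 and -0.01 over all genes tested, of which 26.5% and 36.4% were called higher. Between stalk and leaf, 4 of the 36 were higher and 15 lower in stalk, with a median of -0.28, against 37.2% higher, 31.3% lower and a median of 0.05 over all genes. NtGSTU14 and NtGSTU17 were lower in stalk as well, and NtGSTU40 had no call.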

How the data were processed

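Total RNA was sequenced as paired reads from TruSeq libraries. The authors deposited FPKM values, 1 table per tissue, made from the reads with tools that the submitters list as HISAT2, StringTie and RSEM, with no version, option or genome build given. The unit rests on a legend of the study. The even sums resemble TPM, but they lay below the fixed total that a complete set of TPM values adds up to. Libraries were grouped by the tissue and material of their columns. The members and lists were chosen with earlier results of these data known. The named genes are the trio, the 3 family members and the 1 gene most like each member, and the highest Tau member per tissue.

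The 42820 of 69500 genes that reached 1 FPKM in 3 or more libraries were tested. Log2(FPKM + 1), which understates changes of low genes, was fitted with limma 3.58.1 (R 4.3.3, trended variance): tissues with terms for tissue and material, materials within a tissue, and the interaction. Adjusted p-values are two-sided and follow Benjamini and Hochberg across all tested genes. Ratios and correlations were tested by permutation (Python 3.11.15, numpy 2.4.6). In simulated data the tissue fit found 80% of genes changed by 1 and 98% of those changed by 2 on the log2 scale, with 11 false calls among 42820 genes. These shares are for genes drawn without regard to spread, and not for genes as variable as the trio. Library numbers were not treated as pairs, since not every same-numbered pair deviated together. Pseudocounts of 0.1 and 0.01, other scalings, no filter, no trend, a block for the number, and fits without libraries or materials were tried. Tissue markers were not looked up, since genes outside the family carry no names here.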

Additional observations from a re-analysis of the deposited data

How the results depend on the processing

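The differences between root and each other tissue kept direction and call for all 3 genes under every alternative tried. Calls or signs were lost for the following Pearson correlations, ratios and differences. The NtGSTU17 stalk minus leaf difference of -0.76 ranged from -1.08 to -0.55 when the libraries of 1 number were left out, and was -0.63 without GDH88. That of NtGSTU40, which was not called, ranged from -0.20 to 0.76 by number. For NtGSTU40/NtGSTU14, the root minus leaf log2 ratio was 0.35 and 0.32 with pseudocounts of 0.1 and 0.01 and ranged from 0.072 to 0.95 by number, and its root minus stalk difference ranged from -1.71 to -0.82 by number and was -2.39 and -2.65 with these pseudocounts. For NtGSTU17/NtGSTU14, root minus leaf ranged from -0.90 to -0.28, and for NtGSTU40/NtGSTU17, root minus stalk ranged from -0.013 to 0.35. The stalk correlation of NtGSTU40 with NtGSTU14 was 0.43 on FPKM, 0.58 as deviations from the material mean, 0.44 without the 2 farthest libraries and 0.57 to 0.70 by number. As deviations from the group means, r of NtGSTU14 ranged from 0.51 to 0.74 with NtGSTU40 and from 0.62 to 0.79 with NtGSTU17. Spearman coefficients of NtGSTU14 that lost their call without the libraries numbered 1 were, with NtGSTU40, 0.56 in roots, 0.50 in stalks, 0.55 in leaves and 0.40 over deviations, and with NtGSTU17, 0.57 in stalks and 0.47 over deviations. With NtGSTU40 in stalks, rho also missed the threshold as deviations from the material mean (0.56), without the 2 farthest libraries (0.46) and without the libraries numbered 3 (0.57). Ranks of likeness moved from 104 to 43 (NtGSTU17 to NtGSTU14) and from 9 to 2 (NtGSTU17 to NtGSTU40) with Spearman's coefficient, and over deviations to 412 (NtGSTU40 to NtGSTU14), 141 (NtGSTU14 to NtGSTU17), 1571 (NtGSTU14 to NtGSTU40) and 1 (NtGSTU17 to NtGSTU40). The cause was not tested, other than by the construction of each alternative.

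With the library number as a replicate block, no call changed: the root minus leaf difference in the log2 ratio NtGSTU40/NtGSTU17 was 1.20 (exact adjusted p = 0.000103), and the leaf correlation of these genes was 0.75 (adjusted p = 0.00161, permutation). Whether a number marks the same plants in different tissues is not stated. Of 18 pairs of libraries with the same material and number, 15 had deviations correlated above 0.1 between stalk and leaf (mean 0.18, against -0.09 for other numbers), 10 between root and leaf and 6 between root and stalk, so that the numbers were not taken as pairs. Over the 6 material means, the exact sign-flip test cannot go below p = 0.0312, and it gave that value (adjusted p = 0.0352) for 8 of the 9 ratio comparisons. Leaving out single libraries changed no call of the levels, the ratios or the materials. A run without 3 libraries with a negative correlation to their own material was chosen after seeing the data and changed no call. Leaving out the 9 libraries nearest to another material left no stalk library of VxG88. Without read counts, the precision of the lowest values, such as NtGSTU14 in stalks, is unknown.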
